A study of Mus musculus with 14 samples.

Results

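The genes described here are 9 members of the cell death machinery: the BCL2 family genes Bcl2, Bcl2l1, Mcl1, Bax, Bak1, Bid and Bcl2l11, and the initiator caspase genes Casp8 and Casp9. They were taken by symbol from the 56941 gene IDs of the mouse expression tables, by a rule that used symbols alone and found 1 ID for each, and all 9 passed the filter on low counts at both stages. RNA-seq of polyadenylated RNA had been made from 14 libraries of embryonic forebrain. At embryonic day 12.5 (E12.5) there were 3 libraries of floxed telencephalon (ff) and 3 of double conditional knockout telencephalon (dcKO), and at E18.5 there were 4 ff and 4 dcKO libraries of cerebral cortex. The dcKO animals combined floxed alleles of Sbno1, named after strawberry notch of the fruit fly, and of Trp53, the gene of p53, with Emx1-Cre. That driver acts in progenitors of the dorsal telencephalon and in the cells descended from them, so that vessels, microglia and interneurons from ventral progenitors are expected to keep both alleles. The labels do not give the strain, the floxed exons, the litter or whether ff animals carried the driver. Libraries with the driver alone or with 1 of the deletions were not analysed here, so effects of the driver and of each deletion cannot be told apart. The labels list the libraries of a group as separate samples without naming the animal, so p-values measure the spread between these samples, which may be technical.

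In the mitochondrial pathway of apoptosis, the guardians BCL2, BCL-XL (from Bcl2l1) and MCL1 bind and restrain the effectors BAX and BAK (from Bak1), which otherwise open the outer mitochondrial membrane and release cytochrome c. BH3-only proteins such as BID and BIM (from Bcl2l11) engage the guardians and activate the effectors. Caspase-9 is then activated on the APAF1 apoptosome, whereas caspase-8 is activated at death receptors and can cleave BID. In the developing cortex this pathway removes progenitors and young neurons, and p53 can drive it through target genes that include Bax and Bbc3.

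Total expected counts were 4.92 M (M, 1000000) in E12.5 ff replicate 9 and 5.98 M in E18.5 dcKO replicate 2, and ranged from 42.0 to 82.0 M in the other 12 libraries (replicate numbers are those of the libraries' names). The members' expected counts ran from 23.0, for Casp8 in the shallower E18.5 library, to 13847, for Mcl1 in E18.5 ff replicate 8. All dcKO libraries were male by their chromosome Y genes, while the ff libraries included 1 female of 3 at E12.5 and, at E18.5, 2 females of 4. Of the targeted genes, Sbno1 had a log2 fold change in dcKO over ff of -0.59 (SE 0.09, adjusted p = 0.051 in edgeR) at E12.5 and -0.03 (SE 0.05, adjusted p = 0.68) at E18.5. Trp53 had values of -0.23 (SE 0.09, adjusted p = 0.22 in edgeR) and -0.20 (SE 0.06, adjusted p = 0.032). Counts over the whole gene also take in exons that a deletion leaves in place. Emx1, the locus of the driver, was lower at both stages, by log2 fold changes of -0.96 (SE 0.08, adjusted p of 0.0083 in edgeR) and -0.81 (SE 0.07, adjusted p of 8.3e-06), with no overlap between groups. Since Sbno1 was not lower at E18.5, the dcKO libraries of that stage are called libraries labelled dcKO, and directions refer to that label.

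The promoters are shown first, because p53 is one of the targeted proteins and Bax is a known p53 target, and because Bid, Casp9 and Mcl1 were lower and Bcl2l11 higher in the E18.5 libraries labelled dcKO. RefSeq promoter windows on GRCm38.p6, running from 250 bases before to 50 after a transcription start, were found for all 9 genes, 12 windows in all. Printed 5′ to 3′ on the gene's strand are the windows of Bax (chr7:45466849-45467148, minus strand), Bid (chr6:120916775-120917074, minus), Casp9 (chr4:141793362-141793661, plus), Mcl1 (chr3:95658471-95658770, plus) and the first window of Bcl2l11 (chr2:128125788-128126087, plus). Capitals mark a match on either strand to the p53 half-site or to GGGCGG (the GC box), to CCAAT, which NF-Y binds, to TATAAA (the TATA box) or to TGACGTCA (the cyclic AMP response element).
Bax: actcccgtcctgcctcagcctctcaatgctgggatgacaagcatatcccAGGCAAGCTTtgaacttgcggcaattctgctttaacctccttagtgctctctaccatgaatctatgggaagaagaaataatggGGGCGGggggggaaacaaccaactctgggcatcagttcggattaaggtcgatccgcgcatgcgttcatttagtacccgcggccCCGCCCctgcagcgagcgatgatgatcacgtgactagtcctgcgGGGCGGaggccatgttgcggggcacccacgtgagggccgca
Bid: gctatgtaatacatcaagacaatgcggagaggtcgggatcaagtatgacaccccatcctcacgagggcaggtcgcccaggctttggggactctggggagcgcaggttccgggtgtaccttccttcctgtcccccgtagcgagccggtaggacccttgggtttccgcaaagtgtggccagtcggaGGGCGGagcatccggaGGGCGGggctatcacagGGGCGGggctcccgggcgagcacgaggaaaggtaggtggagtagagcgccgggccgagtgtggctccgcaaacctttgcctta
Casp9: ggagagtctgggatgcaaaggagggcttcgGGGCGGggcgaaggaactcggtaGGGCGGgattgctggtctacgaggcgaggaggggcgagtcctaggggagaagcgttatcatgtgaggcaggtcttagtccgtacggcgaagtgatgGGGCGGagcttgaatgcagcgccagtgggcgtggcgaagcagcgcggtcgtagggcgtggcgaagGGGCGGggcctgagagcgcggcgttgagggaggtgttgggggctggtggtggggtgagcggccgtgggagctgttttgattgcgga
Mcl1: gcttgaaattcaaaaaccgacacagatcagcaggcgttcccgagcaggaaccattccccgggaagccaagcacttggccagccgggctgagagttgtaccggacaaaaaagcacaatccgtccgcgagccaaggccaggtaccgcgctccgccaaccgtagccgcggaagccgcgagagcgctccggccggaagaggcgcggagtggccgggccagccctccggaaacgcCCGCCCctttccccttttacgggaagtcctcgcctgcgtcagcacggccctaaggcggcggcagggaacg
Bcl2l11: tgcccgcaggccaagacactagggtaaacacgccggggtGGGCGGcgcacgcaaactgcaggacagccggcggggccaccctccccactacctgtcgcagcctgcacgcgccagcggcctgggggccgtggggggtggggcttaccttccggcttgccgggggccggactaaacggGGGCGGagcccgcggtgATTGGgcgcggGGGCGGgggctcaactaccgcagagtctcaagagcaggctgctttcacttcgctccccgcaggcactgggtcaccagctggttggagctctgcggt

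The p53 half-site matched in 1 of the 12 windows, that of Bax, where its 10 letters AGGCAAGCTT begin 201 bases before the start. Over all 32851 promoter windows 8.36% held such a match. GGGCGG or its complement was in 7 of the 12 windows, those of Bcl2, Bid, Casp9, Mcl1 and Bax and both of Bcl2l11, against 35.7% of all windows. Bcl2 had 7 copies, Casp9 4, Bid and Bax 3 each and Mcl1 1. CCAAT was found in 3 windows, of Casp8 and both of Bcl2l11, against 37.4% of all windows. TATAAA and TGACGTCA, present in 13.6% and 1.79% of all windows, matched in none of the 12. The 3 windows of Bcl2l1 and the window of Bak1 held none of the motifs, with a GC content of 49.3% to 58.3%, whereas that of Bcl2 reached 76.0% against a median of 52.7%. A match is a description of these letters and not a bound site.

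Levels of the 9 genes can be compared with each other on the scale of transcripts per 1000000 transcripts (TPM), which divides by transcript length. The order Bax, Bcl2l1, Mcl1, Bak1, Casp9, Bid held by group mean in all 4 groups. Bax was the most abundant, with means of 179 ± 3.9, 181 ± 5.2, 181 ± 1.9 and 166 ± 17.7 TPM in E12.5 ff, E12.5 dcKO, E18.5 ff and the E18.5 libraries labelled dcKO (SD, n = 3, 3, 4 and 4). Bcl2l1 stood between 124 and 134 TPM and Mcl1 between 83.8 and 101 TPM in the group means. The other effector, Bak1, lay far below Bax, between 28.9 and 33.3 TPM. Casp9 (17.7 to 21.5 TPM) and Bid (10.9 to 17.8 TPM) came next, and none of these 6 genes overlapped its next lower neighbour among them in any group.

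The 3 lowest genes changed places between the stages. At E12.5 Bcl2l11 (9.58 ± 1.56 TPM in ff) stood above Casp8 (6.87 ± 1.11 TPM) and Bcl2 (6.58 ± 0.29 TPM, SD, n = 3), and at E18.5 Bcl2 (8.87 ± 0.61 TPM in ff) stood above Bcl2l11 (5.48 ± 0.60 TPM) and Casp8 (4.21 ± 0.44 TPM, SD, n = 4). Neighbours whose libraries overlapped were Bid with Bcl2l11 and Casp8 with Bcl2 in both E12.5 groups, Bcl2l11 with Casp8 in E18.5 ff, and Bcl2 with Bcl2l11 in the E18.5 libraries labelled dcKO. Bcl2, the founding guardian of the family, made up 2.80% ± 0.02 of the summed TPM of the 3 guardians in E12.5 ff and 3.76% ± 0.11 in E18.5 ff (SD, n = 3 and 4). With counts per kilobase of the longest transcript in place of TPM, 7 of the 9 genes kept their rank in each E12.5 group.

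**Figure D1:**
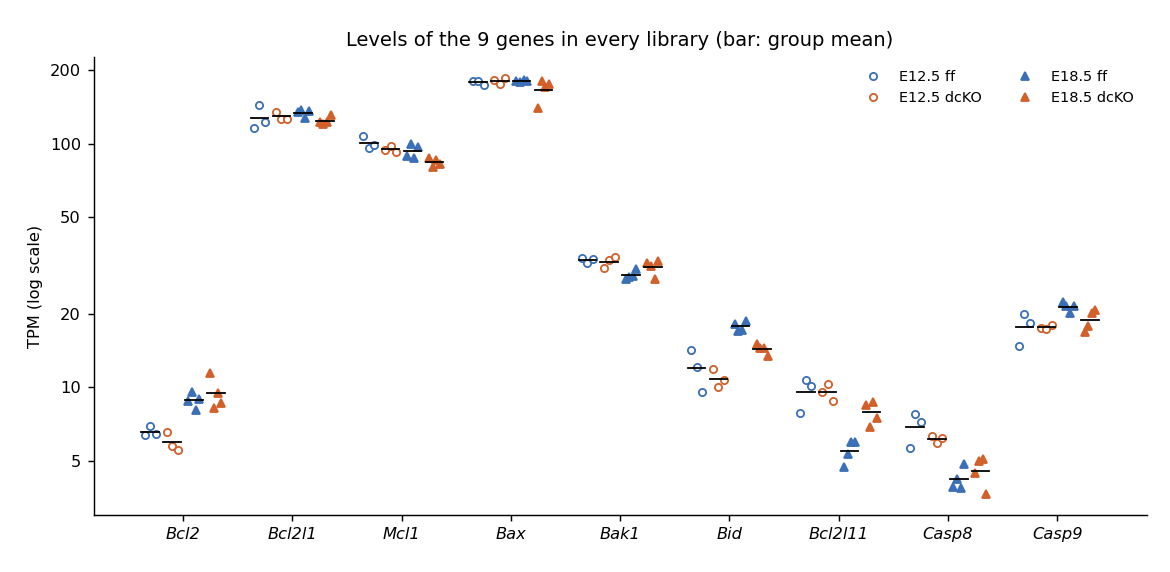
TPM on a log axis for each gene in every library (circles, E12.5; triangles, E18.5; blue, ff; orange, dcKO; black bars, group means). Bax, Bcl2l1 and Mcl1 lie between 80.4 and 186 TPM, and Bcl2, Bcl2l11 and Casp8 between 3.65 and 11.4 TPM.

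At E12.5 the comparison of dcKO with ff asked whether these genes differ early in the development of the cortex when both targeted genes are floxed and the driver is present. None of the 9 was called at an adjusted p under 0.05 in edgeR, and none was at an unadjusted p under 0.05, in a comparison in which 34 of 17853 genes (0.19%) were called. Their log2 fold changes lay between -0.14 for Bid and 0.10 for Bax, with a median of -0.05 against 0.01 over all genes tested. Adjusted p-values were 0.46 to 0.97. Across all genes 3433 were at an unadjusted p under 0.05 in edgeR, and the DESeq2 Wald test called 1237, none of them among the 9.

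Bax alone had groups that did not overlap at E12.5. Its counts per 1000000 counts (CPM, scaled within the stage) were 73.6, 69.9 and 73.6 in ff replicates 9, 4 and 7 and 75.4, 75.8 and 80.6 in dcKO replicates 2, 6 and 10. All 3 dcKO libraries were above all 3 ff libraries, by a log2 fold change of 0.10 (SE 0.07, adjusted p = 0.46 in edgeR), and 26.8% of all tested genes had groups that did not overlap. On the TPM scale the groups of Bax overlapped. Bid was spread widely among ff libraries, at 18.4, 13.3 and 11.5 CPM in ff replicates 9, 4 and 7 against 13.04, 11.97 and 12.99 CPM in dcKO. The ff value of 18.4 CPM came from the shallow library, where it rested on 89.0 counts, and without that library the log2 fold change of Bid was 0.03 in place of -0.14. Intervals of 95% were taken from the SE by a normal approximation, which is somewhat narrow for so few libraries. They ran at E12.5 from -0.07 to 0.19 for the log2 fold change of Bcl2l1 and from -0.20 to 0.09 for that of Mcl1. The widest was that of Casp8, from -0.39 to 0.30.

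At E18.5, 6 of the 9 genes were called in edgeR: Bid, Casp9, Mcl1, Bcl2l1 and Bax were lower and Bcl2l11 was higher in the libraries labelled dcKO. Of all genes tested, 5779 of 17974 (32.2%) were called in this comparison. The median log2 fold change stood at -0.22 over the 9 genes and 0.03 over all genes. Bcl2, Bak1 and Casp8 were not called. In 5 of the 9 genes the CPM of the groups did not overlap, 4 with the libraries labelled dcKO below ff and 1 above, against 33.3% of all genes. In bulk tissue, fewer cells of a type and less RNA of a gene in each cell cannot be told apart.

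Among the guardians, Mcl1 (ENSMUSG00000038612.17, GRCm38 chr3:95658788-95663176) encodes a short-lived protein that progenitors and young neurons of the cortex need to survive. Its level was 162, 177, 167 and 174 CPM in ff replicates 7, 8, 17 and 18 and 147, 139, 142 and 134 CPM in replicates 2, 3, 12 and 13 labelled dcKO. Every library labelled dcKO lay below every ff library, and the mean fell from 170 ± 6.6 to 141 ± 5.2 CPM (SD, n = 4 each), to 82.7% of ff by the fit. The log2 fold change stood at -0.27 (SE 0.05, adjusted p = 0.0014 in edgeR).

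Bcl2l1 (ENSMUSG00000007659.19, GRCm38 chr2:152780668-152831728), whose long product BCL-XL protects postmitotic neurons, was tightly grouped in ff. It measured 146, 144, 147 and 146 CPM in ff replicates 7, 8, 17 and 18, and 116, 126, 124 and 128 CPM in replicates 2, 3, 12 and 13 labelled dcKO. The groups did not overlap, and Bcl2l1 fell by 0.24 on the log2 scale (SE 0.05, adjusted p = 0.0025 in edgeR). These counts sum the long and short splice forms, which have opposite effects on cell death. Bcl2 (ENSMUSG00000057329.8, GRCm38 chr1:106538178-106714274) ranged over 33.2 to 36.7 CPM in ff and 30.3 to 41.1 CPM in those labelled dcKO. Its groups overlapped, with a log2 fold change of -0.05 (SE 0.09, adjusted p = 0.66 in edgeR) and a 95% interval of -0.22 to 0.11.

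Of the effectors, Bax (ENSMUSG00000003873.12, GRCm38 chr7:45461697-45466898) was 72.9, 68.7, 76.9 and 72.6 CPM in ff replicates 7, 8, 17 and 18, and 52.3, 68.8, 62.8 and 63.8 CPM in replicates 2, 3, 12 and 13 labelled dcKO. The lowest value was that of the shallow library, and replicate 3 labelled dcKO was level with ff replicate 8, so that the groups overlapped. Bax fell by 0.22 on the log2 scale (SE 0.07, adjusted p = 0.031 in edgeR). Its call was lost without ff replicate 7 (adjusted p = 0.054) or 17 (0.065), without replicate 12 (0.060) or 13 (0.060) labelled dcKO and with upper quartile scaling (0.060), and it passed in 13 of 18 alternative fits. Among the 18 alternative fits at E18.5, omission of the shallow library and of replicate 2 labelled dcKO is the same fit under both names. Bak1 (ENSMUSG00000057789.15, GRCm38 chr17:27019810-27029009) ranged over 25.3 to 28.7 CPM in ff and 24.9 to 28.0 CPM in those labelled dcKO. Its log2 fold change stood at -0.01 (SE 0.07, adjusted p = 0.95 in edgeR), with a 95% interval of -0.14 to 0.13.

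The pair of BH3-only genes moved in opposite directions. Bid (ENSMUSG00000004446.13, GRCm38 chr6:120891930-120916853) links caspase-8 to the mitochondrial pathway. It was 20.6, 18.6, 20.2 and 20.4 CPM in ff replicates 7, 8, 17 and 18, and 15.7, 15.0, 14.6 and 13.3 CPM in replicates 2, 3, 12 and 13 labelled dcKO. The groups were clearly apart, and Bid fell the most of the 9, to 72.9% of ff (log2 fold change of -0.46 with an SE of 0.08, adjusted p = 0.00070 in edgeR). Exons of Bid share 628 bases with Bcl2l13 on the opposite strand, and the strand setting of the counting is not given in the sources used here. At the same stage Bcl2l13 itself had a log2 fold change of -0.02 (SE 0.05, adjusted p = 0.83 in edgeR).

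Bcl2l11 (ENSMUSG00000027381.18, GRCm38 chr2:128126038-128162547), the gene of BIM, was the only one of the 9 that rose. It was 11.1, 11.5, 14.7 and 13.7 CPM in ff replicates 7, 8, 17 and 18, and 17.8, 15.0, 17.8 and 14.7 CPM in replicates 2, 3, 12 and 13 labelled dcKO. The groups did not overlap, but the highest ff library and the lowest labelled dcKO both stood near 14.7 CPM. The rise was to 127% of ff (log2 fold change of 0.35 with an SE of 0.11, adjusted p = 0.027 in edgeR). Bcl2l11 passed the threshold in 11 of 18 alternative fits. It missed with sex as a covariate (adjusted p = 0.098 in edgeR), with a correction for length and GC content (0.065) and without ff replicate 7 (0.10) or 8 (0.091). It also missed without replicate 12 (0.087) or 2 (0.051) labelled dcKO, the latter counted again as the fit without the shallow library.

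Of the initiator caspases, Casp9 (ENSMUSG00000028914.14, GRCm38 chr4:141793612-141815976) was 42.7, 42.1, 42.3 and 42.9 CPM in ff replicates 7, 8, 17 and 18, and 30.7, 32.2, 36.3 and 33.7 CPM in replicates 2, 3, 12 and 13 labelled dcKO. The ff libraries had an SD of 0.39 CPM and all lay above the libraries labelled dcKO, where Casp9 was at 78.7% of ff (log2 fold change of -0.35 with an SE of 0.06, adjusted p = 0.0011 in edgeR). Casp8 (ENSMUSG00000026029.15, GRCm38 chr1:58795374-58847503) was the least abundant of the 9 at this stage, at 3.92 to 4.82 CPM in ff and 3.68 to 4.49 CPM in those labelled dcKO. Its log2 fold change stood at -0.07 (SE 0.13, adjusted p = 0.73 in edgeR), with a 95% interval of -0.31 to 0.18. Bid, Casp9, Mcl1 and Bcl2l1 passed the threshold in all 18 alternative fits of this comparison that gave an adjusted p.

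**Figure D2:**
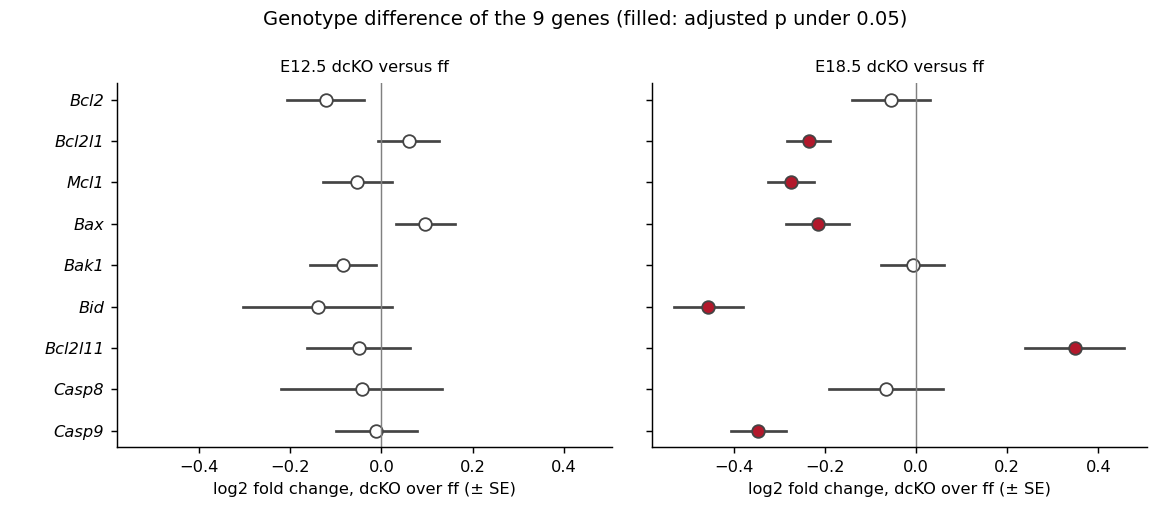
Log2 fold change of dcKO over ff (x axis) with its SE (bars) for the 9 genes at E12.5 and at E18.5, filled where the adjusted p in edgeR was under 0.05. No gene is filled at E12.5, and at E18.5 Bid, Casp9, Mcl1, Bcl2l1 and Bax lie below 0 and Bcl2l11 above it.

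On the deposited TPM scale the E18.5 differences were shifted. The log2 difference in TPM was higher than that in counts by a median of 0.11 over all genes, so counts and TPM place the point of no change differently. Bid (-0.29 on the log2(TPM + 1) scale) and Mcl1 (-0.15) were still below ff in every library labelled dcKO, and Bcl2l11 (0.45) was above it, each at an exact permutation p of 0.0286, the smallest that 4 against 4 allows. Casp9 (-0.18), Bax (-0.13) and Bcl2l1 (-0.11) were lower with overlapping groups (exact permutation p = 0.0571 each, two-sided). Bak1 (0.10), Casp8 (0.09) and Bcl2 (0.08) had positive differences on this scale (exact permutation p = 0.17, 0.46 and 0.63). Relative to the shift of 0.11, those 3 differences were near 0. The directions of the 6 called genes were the same on both scales.

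The authors' deposited table called the same 6 genes at E18.5, in the same directions, and none of the 9 at E12.5. In the authors' deposited table the log2 fold changes at E18.5 were -0.46 for Bid, -0.34 for Casp9, -0.29 for Mcl1, -0.24 for Bcl2l1, -0.22 for Bax and 0.28 for Bcl2l11.

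Ratios of members within a library do not depend on how libraries are scaled. Bcl2l1 over Bcl2 was 15.1 ± 0.57 in E18.5 ff and 13.4 ± 1.98 in those labelled dcKO (SD, n = 4 each), a log2 difference of -0.19 (two-sided exact permutation p = 0.14, 0.27 adjusted over 4 tests). Bax over Bcl2 was 20.5 ± 1.64 and 18.1 ± 4.17 (exact permutation p = 0.37, adjusted 0.37). At E12.5 both ratios gave an exact permutation p of 0.20 (adjusted 0.27), where 3 against 3 cannot go below 0.10. Summed over genes, the 3 guardians stood at 236 ± 10.4 TPM and the 2 effectors at 210 ± 2.4 TPM in E18.5 ff, and at 217 ± 5.7 and 198 ± 17.5 TPM in the libraries labelled dcKO. The guardians over the effectors came to 1.13 ± 0.06 and 1.11 ± 0.12 (SD, n = 4 each). Bcl2l11 over Bid ranged from 0.26 to 0.35 in E18.5 ff and from 0.47 to 0.60 in the libraries labelled dcKO. That these ranges did not overlap is no further result, since the groups of both genes were already apart in TPM, in opposite directions. At E12.5 the ratio of Bcl2l11 over Bid ranged from 0.55 to 1.06 in ff and from 0.81 to 1.03 in dcKO.

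The change from E12.5 to E18.5 was next set side by side in the genotypes, with all 14 libraries in 1 fit. Stage, tissue, table and any batch of libraries cannot be told apart in it. In ff, Bid, Bcl2 and Casp9 were higher at E18.5 and Bcl2l11, Casp8 and Bak1 lower, 6 of the 9 against 61.4% of all 19327 genes called in edgeR. In dcKO, Bcl2 was higher and Casp8, Bcl2l11, Mcl1, Bax, Bak1 and Bcl2l1 lower, 7 of the 9 against 62.2% of all genes.

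Bcl2l11 had the largest stage difference of the 9 in ff, at a mean of 21.6 ± 3.4 CPM at E12.5 and 12.9 ± 1.7 CPM at E18.5 (SD, n = 3 and 4, scaled over the 14 libraries). It fell by 0.77 on the log2 scale in ff (SE 0.11, adjusted p = 1.9e-05 in edgeR) and by 0.41 in dcKO (SE 0.11, adjusted p = 0.0048). Casp8 fell by 0.68 (SE 0.15, adjusted p = 0.00081 in edgeR) and 0.74 (SE 0.15, adjusted p = 0.00038), and Bak1 by 0.35 and 0.32 (SE 0.07 and 0.06). Bcl2 rose by 0.41 (SE 0.08, adjusted p = 0.00050 in edgeR) in ff and by 0.44 (SE 0.08, adjusted p = 0.00025) in dcKO. These 4 genes had the same direction of stage difference in both genotypes.

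Bid rose by 0.56 in ff (SE 0.12, adjusted p = 0.00055 in edgeR), whereas its stage difference in dcKO was 0.19 (SE 0.11, adjusted p = 0.17). Casp9 rose by 0.21 in ff (SE 0.08, adjusted p = 0.032 in edgeR) and had a difference of -0.17 in dcKO (SE 0.08, adjusted p = 0.069). The rise of Casp9 in ff was lost without E12.5 ff replicate 9 (adjusted p = 0.14) or E18.5 ff replicate 7 (0.060). Bax, Bcl2l1 and Mcl1 had stage differences of 0.04, 0.04 and -0.13 in ff (adjusted p = 0.72, 0.61 and 0.061 in edgeR). In dcKO they fell by 0.32, 0.30 and 0.40 on the log2 scale (SE 0.08, 0.06 and 0.06; adjusted p = 0.0022, 0.00030 and 1.8e-05).

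Whether the genotype difference itself differed between the stages was tested with the interaction of genotype and stage. Of the 9 genes, 4 passed in edgeR, all more negative at E18.5 than at E12.5, and 16.5% of all genes were called. Bcl2l1 had an interaction of -0.34 (SE 0.08, adjusted p = 0.013 in edgeR) and passed in all 22 alternative fits. The correction for length and GC content was fitted within each stage only and is not among the 22. At E12.5 that correction gave log2 fold changes of -0.068 for Bcl2l1 and -0.15 for Bax, with the sign reversed. Casp9 had -0.37 (SE 0.11, adjusted p = 0.030 in edgeR), Bax -0.36 (SE 0.11, adjusted p = 0.041) and Mcl1 -0.27 (SE 0.08, adjusted p = 0.038). They passed in 14, 10 and 10 of the 22. Bid (-0.37, SE 0.16, adjusted p = 0.13 in edgeR) and Bcl2l11 (0.36, SE 0.16, adjusted p = 0.15) did not pass. Without E12.5 ff replicate 9, the shallow library in which Bid was high, the interaction of Bid was -0.53 (adjusted p = 0.010 in edgeR). Bcl2, Bak1 and Casp8 had interactions of 0.03, 0.04 and -0.06 (SE 0.12, 0.09 and 0.21).

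Leaving out single libraries ended 3 of those calls in edgeR. For Casp9 the adjusted p was 0.056 without E12.5 ff replicate 9, 0.057, 0.059 and 0.089 without E12.5 dcKO replicates 2, 6 and 10, 0.055 and 0.051 without E18.5 ff replicates 7 and 17, and 0.052 without replicate 13 labelled dcKO. For Mcl1 it was 0.071 without E12.5 ff replicate 4, 0.11 and 0.069 without E12.5 dcKO replicates 6 and 10, 0.065, 0.057 and 0.061 without E18.5 ff replicates 8, 17 and 18, and 0.054 and 0.070 without replicates 3 and 13 labelled dcKO. For Bax it was between 0.057 and 0.12 without any 1 of the 6 E12.5 libraries, E18.5 ff replicates 7, 17 or 18, or replicates 12 or 13 labelled dcKO. The sign stayed negative for these genes in every such fit.

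**Figure D3:**
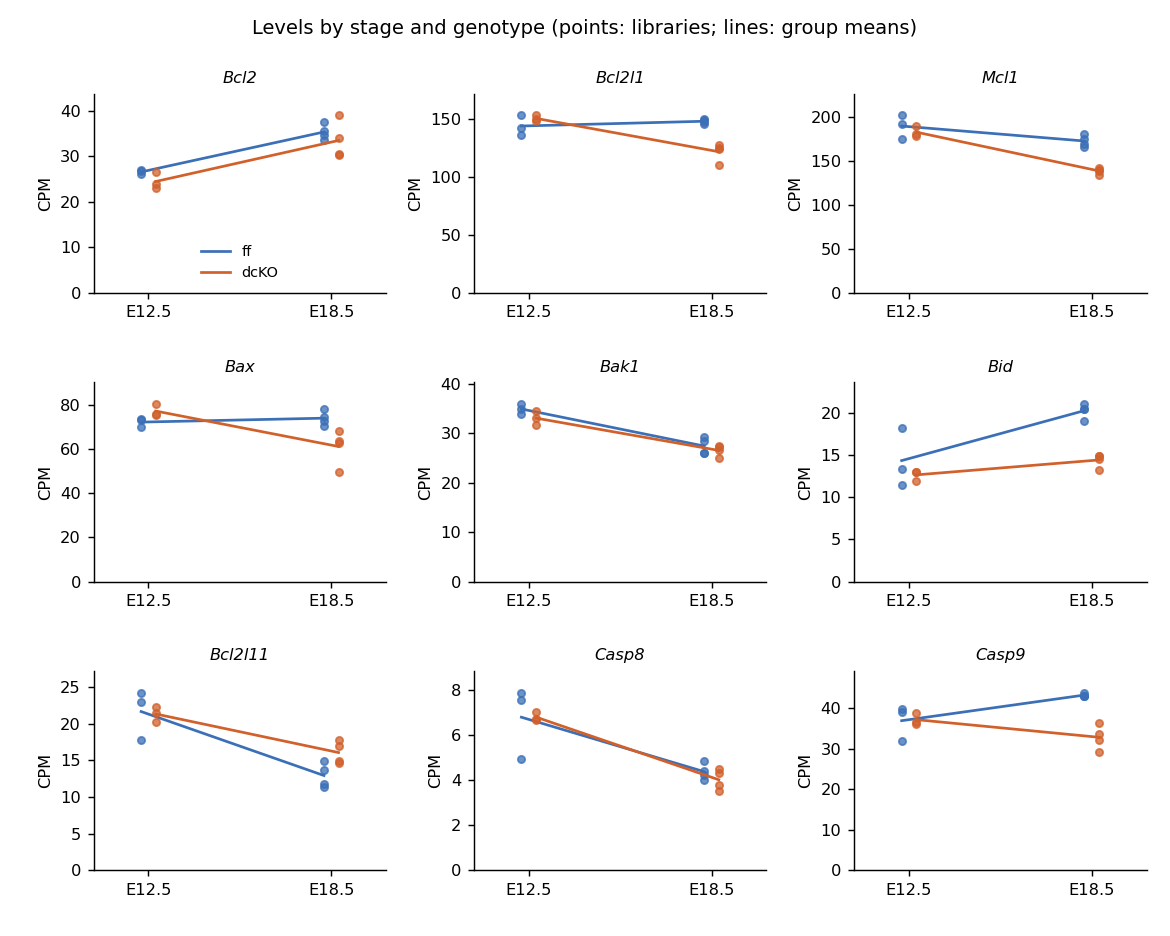
CPM scaled over all 14 libraries (y axes, from 0) by stage, with a point for each library and lines joining group means (blue, ff; orange, dcKO). The lines of Bcl2l1, Mcl1, Bax and Casp9 separate at E18.5, while those of Bcl2, Bak1 and Casp8 run close together.

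The other genes of the pathway were described from 8 lists of 65 genes, ordered by role. At E12.5 none of the 54 tested was called in edgeR. At E18.5, 11 were higher and 10 lower of the 56 tested, against 15.6% higher and 16.6% lower of all genes, with a median log2 fold change of 0.09 against 0.03 over all genes. The 11 fell to 7 without ff replicate 7, and the 10 to 6 without replicate 13 labelled dcKO.

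Outside the 9 genes, BH3-only genes changed in both directions, 3 higher and 3 lower of 7. Bbc3, the gene of the p53 target PUMA, was 27.5, 25.2, 28.3 and 24.9 CPM in ff replicates 7, 8, 17 and 18, and 16.96, 15.5, 15.0 and 16.5 CPM in replicates 2, 3, 12 and 13 labelled dcKO. All libraries labelled dcKO were well below ff, and Bbc3 fell by 0.73 on the log2 scale (SE 0.07, adjusted p = 1.6e-05 in edgeR). Pmaip1, the gene of NOXA, which neutralises MCL1, rose from 1.502 ± 0.35 to 3.12 ± 0.44 CPM (SD, n = 4 each), a log2 fold change of 1.03 (SE 0.20, adjusted p of 0.0022 in edgeR). Bmf rose by 0.44 (SE 0.11, adjusted p = 0.0078 in edgeR), and Bnip3, a BH3-like gene of hypoxia and mitophagy, fell by 0.41 (SE 0.07, adjusted p = 0.00081). Each of these 4 had groups that did not overlap and passed in all 18 alternative fits.

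In a list of further BCL2 family genes, Bok, which can itself permeabilise mitochondria, was the 1 gene called of 3 tested. Its level fell from 42.2 ± 2.84 to 28.5 ± 3.07 CPM (SD, n = 4 each), a log2 fold change of -0.55 (SE 0.08, adjusted p of 0.00027 in edgeR). Bcl2l12 (0.08) and Bcl2l13 (-0.02) were not called. Of the other guardians, Bcl2l2, the gene of BCL-W, had a log2 fold change of -0.02 (SE 0.06), and Bcl2a1b was called higher at a mean of 0.31 ± 0.11 CPM in ff and 0.62 ± 0.20 CPM in those labelled dcKO (SD, n = 4 each). Bcl2a1b has near-identical copies that its reads may come from, and its call passed in 8 of 17 alternative fits. It missed without ff replicate 7, 8 or 18 or replicate 3 or 12 labelled dcKO (adjusted p = 0.068 to 0.13 in edgeR).

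Among caspases outside the 9 genes, Casp6 (-0.25, SE 0.10, adjusted p = 0.084 in edgeR) and Casp2 (0.12, SE 0.06, adjusted p = 0.14) were not called.

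Of 9 genes of the apoptosome and of mitochondrial release, 2 were higher and 4 lower. Vdac3, a channel of the outer membrane, fell from 197 ± 12.5 to 138 ± 6.0 CPM (SD, n = 4 each), a log2 fold change of -0.51 (SE 0.06, adjusted p of 4.9e-05 in edgeR). Vdac2, whose product holds BAK, fell by 0.17 (SE 0.05, adjusted p = 0.022 in edgeR), a call lost without replicate 12 (adjusted p = 0.059) or 13 (0.066) labelled dcKO and with upper quartile scaling (0.054). Endog, a mitochondrial nuclease whose exons overlap Spout1 on the opposite strand, rose by 0.56 (SE 0.13, adjusted p = 0.0071 in edgeR), a call lost in 1 fit of all 14 libraries (adjusted p = 0.064). Cycs, the gene of cytochrome c, had a log2 fold change of -0.13 (SE 0.05, adjusted p = 0.076 in edgeR).

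In the other 3 lists few genes passed. Of 6 inhibitors of apoptosis, Birc2 (0.18, SE 0.05, adjusted p = 0.021 in edgeR) was higher, and its call was lost in 8 of 18 alternative fits, including the fit without any 1 ff library (adjusted p = 0.053 to 0.082) or without replicate 12 labelled dcKO (0.069). Naip2 (0.91, SE 0.37) and Naip5 (0.68, SE 0.38), both with group means under 1 CPM at E18.5, were not called. Of 14 tested genes of death receptors and initiator complexes, Ripk1 (0.37, SE 0.09, adjusted p = 0.0085 in edgeR) and Pidd1 (0.36, SE 0.11, adjusted p = 0.023) were higher and Tradd (-0.38, SE 0.13, adjusted p = 0.035) lower. Pidd1 missed the threshold without ff replicate 7, 8 or 17 or replicate 13 labelled dcKO (adjusted p = 0.060 to 0.076 in edgeR). Tradd missed it without ff replicate 7 or 17 or replicate 2, 12 or 13 labelled dcKO (0.057 to 0.094). Ripk1, whose exons overlap Serpinb6a, passed in all 18. In a list of 8 caspase substrates and related genes, Dffb, the caspase-activated nuclease, and Rock1, a kinase of membrane blebbing, were called higher. Both rose by 0.44 (SE 0.10 each, adjusted p = 0.0048 and 0.0064 in edgeR), whereas Gsn (0.20, SE 0.09) was not called.

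A separate list of 22 p53 targets shares Bbc3, Pmaip1, Pidd1, Tnfrsf10b, Fas and Apaf1 with the lists above. At E18.5 it had 5 higher and 6 lower genes, against 15.6% higher and 16.6% lower of all genes. Its median log2 fold change was 0.01 against 0.03 over all genes. Aen, a p53-induced nuclease, fell from 78.6 ± 2.8 to 55.7 ± 1.3 CPM (SD, n = 4 each), a log2 fold change of -0.50 (SE 0.05, adjusted p of 1.3e-05 in edgeR). Sesn2, which p53 and metabolic stress induce, rose from 8.63 ± 0.67 to 14.5 ± 2.44 CPM (log2 fold change of 0.77 with an SE of 0.12, adjusted p = 0.00037 in edgeR). Both passed in all 18 alternative fits. No gene of this list was called at E12.5 in edgeR, where Bbc3 had a log2 fold change of 0.02 (SE 0.17), Aen -0.13 (SE 0.06) and Pmaip1 -0.08 (SE 0.18).

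Several of these genes also differed in their genotype difference between the stages. The interaction was -0.81 for Bbc3 (SE 0.16, adjusted p = 0.0043 in edgeR), -0.58 for Vdac3 (SE 0.10, adjusted p = 0.0018) and -0.41 for Aen (SE 0.07, adjusted p = 0.0024), each past the threshold in all 22 alternative fits. It was 0.78 for Rock1 (SE 0.14, adjusted p = 0.0017 in edgeR), which passed in all 22, and 1.08 for Pmaip1 (SE 0.28, adjusted p = 0.016), which passed in 21 and missed without 1 library (E12.5 dcKO replicate 10, adjusted p = 0.054). Over the 8 lists 7 genes had a positive and 8 a negative interaction past the threshold, of 58 tested, against 7.12% and 9.41% of all genes.

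**Figure D4:**
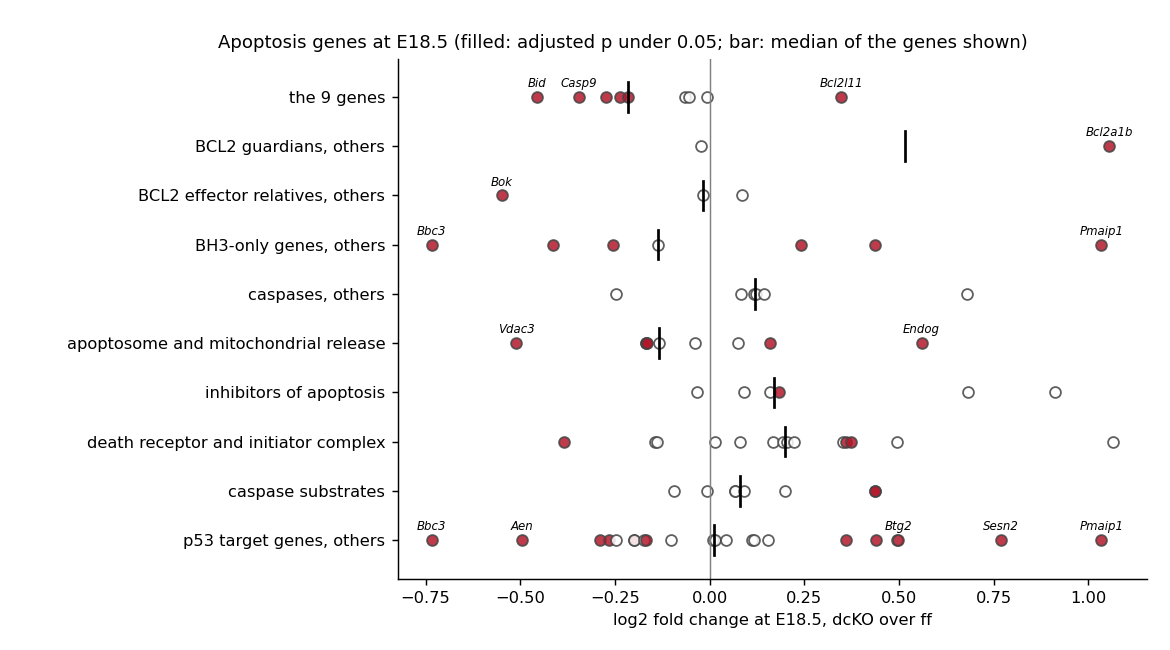
Log2 fold change at E18.5 (x axis, dcKO over ff) of the tested genes shown by list, filled where the adjusted p in edgeR was under 0.05, with the median of the genes shown as a black bar. The 9 genes have their median at -0.22, while the other apoptosis genes lie on both sides of 0; Bbc3 lies at -0.73, Pmaip1 at 1.03 and Bcl2a1b at 1.06.

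Markers of cell types moved with the genotype at E18.5, and their part in the differences of the 9 genes was not tested. No marker of the lists was at 0 in every library of a group. Of all genes tested at E18.5, 15.6% were called higher and 16.6% lower. Of 10 neuronal markers 9 were called lower, Neurod6 by 1.29 on the log2 scale (SE 0.06, adjusted p = 2.0e-07 in edgeR) and Stmn2 by 0.68 (SE 0.06). The summed level of the neuronal markers was 6205 to 6398 TPM in ff and 4161 to 4714 TPM in the libraries labelled dcKO. Of 10 apical progenitor markers 8 were called higher (2185 to 2299 and 2378 to 2647 TPM), with Pax6 at 0.95 and Sox9 at 0.86. Of 10 cycling markers 9 were called higher (347 to 422 and 529 to 548 TPM). So were all 8 of 8 inhibitory neuron markers (378 to 443 and 700 to 905 TPM) and 6 of 9 microglial markers (140 to 182 and 210 to 259 TPM). Erythroid markers had none of 7 called, but sums of 3648 to 6196 TPM in ff and 594 to 2762 TPM in the libraries labelled dcKO. The choroid plexus sum was 43.96 TPM in the lowest of the libraries labelled dcKO, which was replicate 12, and 1486 TPM or more in every ff library. At E12.5, the summed neuronal markers overlapped between ff (2702 to 3348 TPM) and dcKO (3005 to 3324 TPM). The sums did not overlap for cycling markers (1717 to 2004 TPM in ff and 1583 to 1620 TPM in dcKO), intermediate progenitor markers (585 to 690 and 530 to 557 TPM) and microglial markers (81.2 to 95.6 and 100.3 to 103 TPM). Among all single genes tested at E12.5, 26.8% had groups whose CPM did not overlap. In edgeR 1 of the 10 cycling markers and 1 of the 6 intermediate progenitor markers were called lower at E12.5, and no microglial marker was called.

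Genes whose log2 CPM followed that of each member most closely over the 14 libraries were picked from 13731 genes by the highest Pearson r. Libraries of a group share their stage and genotype, and the 14 differ in depth, so these r are a description. Closest to Mcl1 were Ap3s1 (r = 0.98) and Ptrh2 (0.97), to Bcl2l1 Ehd1 (0.98) and Trim35 (0.97), and to Bcl2 the zinc finger genes Zfp40 (0.97) and Zfp287 (0.97). Bax was followed by Stx8 (0.97) and Cdkn2d (0.96), and Bak1 by Clic1 (0.98) and the cyclin gene Ccne1 (0.97). Bid was nearest to Zfta (0.95) and Ptms (0.95), and Bcl2l11 to Evc2 (0.95) and P3h2 (0.94). For Casp8 the genes were Tmem26 (0.97) and Ints5 (0.97), and for Casp9 they were Dnajc14 (0.94) and Fads2 (0.94).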

How the data were processed

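Per the labels' protocols, RNA came from the RNeasy Mini Kit and the libraries from TruSeq Stranded mRNA. The submitters' processing notes name Trim Galore, STAR, RSEM and DESeq2 without versions. Genome build, annotation and strand setting are not given in the sources used here. The authors deposited expected counts and TPM per gene ID, and DESeq2 tables with log2 fold changes and p-values whose deposited adjusted p-values were used only to count calls.

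Table columns were matched to groups by stage and genotype in their names. The genotype word dfl of the control columns was read as the ff of the titles. With that reading, titles matched columns by stage, genotype and number in 14 of 14 samples. In 11 of 14, however, the described library name is a column of another group, so columns were used as group members and sample titles were not tied to individual libraries. A symbol was joined to 56131 of 56941 gene IDs. In a chi-square test of counts, E12.5 dcKO replicates 6 and 10 differed least (4.01 per degree of freedom), against 16.7 to 41.8 in the other pairs of a group, and none was treated as 1 library.

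Expected counts were rounded to whole numbers. Each stage was fitted alone, and all 14 libraries in 1 fit for stage differences and the interaction, with edgeR 4.0.16 (limma 3.58.1, R 4.3.3): filterByExpr, TMM scaling, robust quasi-likelihood F test, and Benjamini-Hochberg adjustment over all tested genes at 0.05. CPM were from edgeR, with a prior count of 2 on the log scale. TPM were compared as log2(TPM + 1) by two-sided exact permutation tests over libraries, without adjustment over genes. Intervals of log2 fold changes are 95% from the SE by a normal approximation and cover the spread between libraries only. With so few libraries they are narrower than intervals by the degrees of freedom of the F test would be. Loci, exon overlaps, lengths and GC content came from GENCODE M21 on GRCm38, matched by unversioned ID (97.7% of tested genes at E12.5 and 97.8% at E18.5), and promoter sequences from RefSeq on GRCm38.p6. The edgeR step was tested on simulated data.

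Named were all 9 genes, up to 3 genes per pathway list with the lowest p at E18.5, and some of the pathway genes called in the interaction. Other pathway genes called in the interaction are not named. Up to 2 genes per marker list and the 2 genes of most like pattern to each member were also named. The members and lists were chosen with earlier results of these data known. Alternatives were DESeq2 1.42.0 (size factors in edgeR and the Wald test), upper quartile scaling, limma-voom, TPM, a filter at a mean of at least 1 CPM or none, sex as a covariate, a correction for length and GC content, omission of shallow libraries, 1 fit for all libraries, and leaving out each library in turn. The correction for length and GC content was used within each stage only. Within a stage, omission of the shallow library is the same fit as leaving out that library, and is counted under both names. The values of 1 gene of the pathway lists are not reported here, and it is left out of the plot by list.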

Additional observations from a re-analysis of the deposited data

Results flagged for a closer look

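The genotype difference of 4 of the 9 genes differed between E12.5 and E18.5 by a test of that difference itself, the interaction term in edgeR over 14 libraries, which called 16.5% of all 19327 genes. On the log2 scale it was -0.37 for Casp9 (adjusted p = 0.030), -0.36 for Bax (adjusted p = 0.041), -0.34 for Bcl2l1 (adjusted p = 0.013) and -0.27 for Mcl1 (adjusted p = 0.038). In each of the 4 the dcKO libraries lay lower against ff at E18.5 than at E12.5. Bcl2l1 passed in all 22 alternative fits, Casp9 in 14, and Bax and Mcl1 in 10 each, and leaving out single libraries ended the calls of Casp9, Bax and Mcl1. The 22 did not include the correction for length and GC content. Stage, tissue and table cannot be told apart in this term. In the 36 groups of 4 E18.5 libraries, 9 genes by genotype on the CPM and TPM scales, no library stood apart from the others by Dixon's criterion.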

How the results depend on the processing

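Of the results that answer a comparison, 335 values under an alternative kept their direction and side of the threshold or stayed within 1.5 times, and 37 moved. Of the values for single genes 1784 stayed, 172 lost the threshold, 25 gained it, 9 moved and 39 changed sign in a fit of counts. None of the 39 was of a gene past the threshold. In TPM, not counted among the 39, the sign also differed for Bak1 (0.10), Bcl2 (0.075) and Casp8 (0.086) at E18.5 and for Bcl2l11 (0.0045) and Casp9 (0.0038) at E12.5, none of them called in counts. Bid, Casp9, Mcl1, Bcl2l1, Bax and Bcl2l11 were called at E18.5 with the DESeq2 Wald test and limma-voom as well as with edgeR. The calls of Bax and Bcl2l11 were lost in other settings. In TPM, Casp9, Bcl2l1 and Bax had an exact permutation p of 0.0571. Counts of Casp8 in the shallow libraries limit what could be seen of it. No paired analysis was possible because ff and dcKO libraries share no replicate number within a stage.

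The number of all genes called at E12.5 (34) was 56 with DESeq2 size factors in edgeR, 1237 with the DESeq2 Wald test, 124 with limma-voom, 244 with no filter, 9 with a mean of at least 1 CPM, 3 with sex as a covariate, 160 with a correction for length and GC content, 71 without the shallow library and 1079 in 1 fit of all 14 libraries. Leaving out 1 library gave 0 to 571. At E18.5 the count of the 9 genes called higher (1) was 0 with sex as a covariate, with the length and GC correction and without the shallow library, and 0 to 1 on leaving out 1 library. The count of other apoptosis genes called lower (10) was 6 with upper quartile scaling and 6 to 11 on leaving out 1 library. The count called higher (11) was 7 in 1 fit of all 14 libraries and 7 to 12 on leaving out 1 library. The count of the 9 genes with a negative interaction (4) was 1 with no filter and 1 to 4 on leaving out 1 library, and all genes called in the interaction (3195) ranged from 1690 to 3307. The cause of these moves was not tested.

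Changes of sign in count fits at E12.5 were 0.0029 for Casp8 and 0.036 for Casp9 with upper quartile scaling, 0.027 for Bcl2l11, 0.054 for Casp8 and 0.018 for Casp9 with sex as a covariate, and -0.15 for Bax, 0.017 for Bcl2 and -0.068 for Bcl2l1 with the length and GC correction. Without the shallow library Bid was at 0.029. Leaving out 1 E12.5 library at a time gave -0.29 to 0.029 for Bid, -0.14 to 0.034 for Bcl2l11, -0.18 to 0.063 for Casp8 and -0.082 to 0.040 for Casp9.

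At E18.5 upper quartile scaling gave 0.023 for Bak1, 0.0069 for Bcl2l2 and 0.013 for Bcl2l13, a mean of at least 1 CPM gave 0.00036 for Bak1, and sex as a covariate gave 0.021 for Casp8 and 0.013 for Bcl2l13. Without the shallow library Bcl2l13 was at 0.0034. Leaving out 1 E18.5 library at a time gave -0.057 to 0.029 for Bak1, -0.051 to 0.0083 for Bcl2l2, -0.0058 to 0.20 for Bcl2l12 and -0.050 to 0.0034 for Bcl2l13. In the interaction Casp8 was at 0.044 with the DESeq2 Wald test, 0.067 with limma-voom and 0.12 without the shallow libraries, and Bcl2 was at -0.010 with limma-voom and -0.035 without the shallow libraries. Leaving out 1 library at a time gave -0.18 to 0.080 for Casp8, -0.041 to 0.069 for Bcl2 and -0.012 to 0.068 for Bak1.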
